A study of Mus musculus with 8 samples.

Results

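The cytosolic ribosome is built from a small (40S) and a large (60S) subunit, each an RNA scaffold dressed with ribosomal proteins, named Rps for the small and Rpl for the large subunit. This account covers the probe sets of an Affymetrix array whose annotation gives 1 gene symbol starting with Rpl or Rps and a digit, or 1 of Rplp0, Rplp1, Rplp2 and Rpsa, without the Rps6k kinases and pseudogenes. A probe set combines the signals of several short probes designed against the same transcript. The rule took 49 of 12422 probe sets, from 35 of 8251 genes named by 1 symbol. It left out 39 probe sets that list a ribosomal protein gene beside other symbols, because the signal of such a probe set cannot be given to 1 gene. Testis RNA was hybridised to 8 arrays in 4 groups of 2 technical replicates, named by the labels castaneus, domesticus, musculus and ssp, all under the organism name Mus musculus. No strain, age, treatment or number of animals is given in the sources used here, and ssp is used only as a group name. The series asks which genes differ in testis among these mice, and since the replicates are technical, the p-values below cover no variation between animals.

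Ribosomal proteins are needed in equal numbers, and their mRNAs, among the most abundant of most cells, share a pyrimidine tract at the 5′ end through which their translation is controlled together. Testis is unusual in that male germ cells silence the X chromosome during meiosis, while X-linked ribosomal protein genes are in lasting demand. Several have autosomal copies that germ cells express. Rpl39l is such a copy of the X-linked Rpl39, and Rps4l is a relative of the X-linked Rps4x.

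No ribosomal protein probe set passed the test among the 4 groups, a test that with 2 arrays per group misses many differences. Of the 49 members, 38 from 31 genes were bright enough to be tested. None passed limma's moderated F test, which asked for a Benjamini-Hochberg adjusted p under 0.05 and group means spanning at least 1 on the log2 scale (2-fold). The lowest adjusted p was 0.126, and 3 of the 38, or 7.9%, had an unadjusted p under 0.05, where 15.9% of all probe sets did. Over all 8874 probe sets tested, 1.76% passed, a share that would come to less than 1 probe set of 38. Group means of a member spanned a median of 0.56 log2, where those of all probe sets spanned 0.81. The members are brighter than most probe sets, and among the brightest 10% they spanned 0.52 against 0.44 for the other probe sets there, with a median residual SD of 0.24 against 0.21. A span of at least 1 was reached by 8 members, or 21.1%, and by 38.7% of all probe sets.

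None of the 6 pairs of groups gave a call either, where 2.33% of all probe sets were called in at least 1 pair. The share of all probe sets called was 0.676% for castaneus and domesticus, 0.947% for castaneus and musculus, 0.349% for castaneus and ssp, 0.744% for domesticus and musculus, 0.687% for domesticus and ssp and 0.98% for musculus and ssp. Between 2 and 5 members per pair had an unadjusted p under 0.05 by limma, and 1 to 3 members differed by at least 1 on the log2 scale. As shares of the 38, these were 5.26% to 13.2% and 2.63% to 7.9%, where 10.8% to 13.5% and 14.7% to 16.6% of all probe sets did so. The lowest adjusted p of any member in any pair was 0.114, that of Rpl39l between castaneus and ssp.

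Most bright ribosomal protein transcripts had their highest mean in castaneus, without a common order of the other groups. Of the members, 18 probe sets of 17 genes lay among the brightest 10% of all tested probe sets, a class chosen after the values were seen, at a mean of about 2062 intensity units or more. In this class 15 of 18 had their highest group mean in castaneus, where 33.3% of the 870 other probe sets of the class did. Of all 38 tested members, these 18 included, 20 were highest in castaneus, where 24% of all tested probe sets were. Castaneus was above the mean of the other groups for 26 of the 38, by a median of 0.205 log2, against 51.5% and 0.015 for all. The order was therefore mostly one of the bright members. The median difference of the 18 between castaneus and the mean of the other 3 groups was 0.35 log2, against 0.05 for the 870 others. None of the 18 passed the F test, which 1.84% of the 870 did. The median was -0.19 in domesticus, -0.18 in musculus and -0.04 in ssp, with -0.02, -0.02 and 0.02 for the others. The exceptions with their highest mean elsewhere were Rplp0, Rps4l and Rpl39l, each highest in ssp. The lowest mean lay in musculus for 7 of the 18, in domesticus for 5, in ssp for 5 and in castaneus for 1. Summed marker levels moved in part with this order: spermatocyte markers read 52529 to 62523 in castaneus and 53404 to 60334 in ssp, against 44035 to 48202 in domesticus and musculus. Most of that sum was Ldhc, and 3 of 6 tested spermatocyte probe sets were above the mean of the other groups in castaneus (median 0.05 log2) and 5 in ssp. In all, 10 of 12 spermatid probe sets were above the mean of the other groups in each of castaneus and ssp; the part of these cells in the order was not tested. In whole tissue, fewer cells of a type and less RNA per cell cannot be told apart. Whether the groups differ in sequence under the short probes, here or for any member named below, was not tested.

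**Figure D1:**
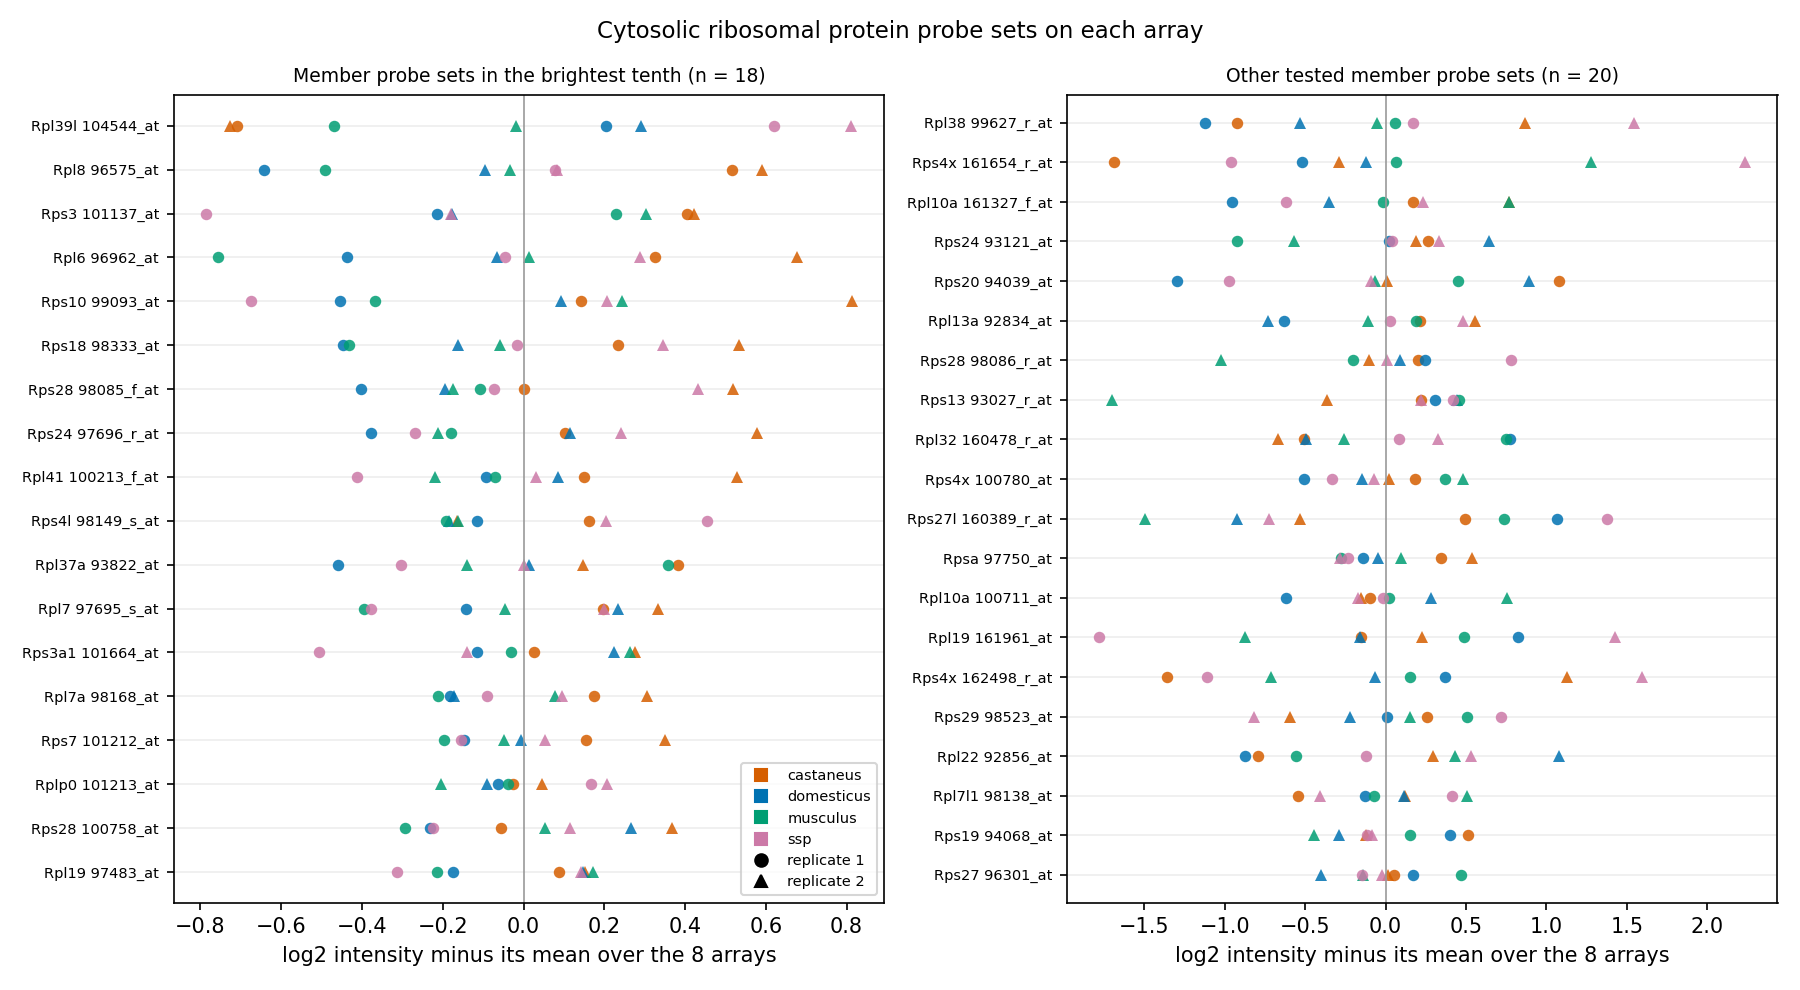
Each row is a tested ribosomal protein probe set, and each point is 1 array: log2 intensity minus the row's mean over the 8 arrays, with colour for the group and shape for the technical replicate. The left panel holds the 18 bright probe sets and the right panel the other 20, on a wider axis. Castaneus points lie to the right in most rows on the left and at the far left for Rpl39l.

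Among the large subunit proteins, Rpl8 and Rpl6 stood highest in castaneus. Rpl8, a protein near the peptidyl transferase centre, read 15121 and 15925 in castaneus, 6775 and 9899 in domesticus, 7526 and 10334 in musculus, and 11170 and 11205 in ssp. Both castaneus arrays lay above the other 6, and ssp lay between them and the rest. The castaneus mean was 1.90-fold that of domesticus (log2 difference 0.92, SE 0.30, limma adjusted p = 0.319).

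Rpl6 read 5014 and 6405 in castaneus, 2955 and 3828 in domesticus, 2371 and 4040 in musculus, and 3877 and 4888 in ssp. Castaneus was again above every other array, by a small margin over the second ssp array. The castaneus mean was 1.83-fold that of musculus (log2 difference 0.87, SE 0.35, limma adjusted p = 0.36).

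Rpl7a read 3856 and 4222 in castaneus and 2948 to 3649 on the other 6 arrays. Rpl41, the smallest ribosomal protein, read 55087 and 71713 in castaneus and 37322 to 52669 elsewhere; its identifier carries a suffix that marks probes shared with similar transcripts. For both genes castaneus stood above the rest without overlap, and the distance between its lower array and the next highest array was small. Rpl7 and Rpl37a had their highest mean in castaneus too, at 7560 and 4676, but their arrays overlapped with those of other groups.

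In the small subunit, Rps3, Rps7 and Rpsa were separated in the same way. Rps3, which lines the mRNA entry channel, read 5398 and 5455 in castaneus, 3511 and 3601 in domesticus, 4775 and 5031 in musculus, and 2362 and 3595 in ssp. Castaneus and musculus lay above domesticus and ssp with no overlap. The castaneus mean was 1.86-fold that of ssp (log2 difference 0.90, SE 0.28, limma adjusted p = 0.304).

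Rps7 read 21731 and 24898 in castaneus and 17030 to 20261 on the other arrays. Rpsa, the laminin receptor homologue of the small subunit, read 1830 and 2093 in castaneus, 1313 and 1396 in domesticus, 1193 and 1547 in musculus, and 1230 and 1186 in ssp. Rpsa was the only one of these separated members outside the brightest 10%. Rps18, at the head of the small subunit, read 19174 and 23599 in castaneus and 16126 and 20727 in ssp, so that these groups overlapped, while domesticus (11964 and 14568) and musculus (12085 and 15670) lay below both. Rps10 had the widest replicate gap of the bright members, 4591 and 7315 in castaneus and 2606 and 4804 in ssp.

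In all, both castaneus arrays exceeded the other 6 for 7 of the 38 tested members, or 18.4%. Over all tested probe sets 5.74% did so. Both ssp arrays lay above the rest for 3 members (background 6.42%), both musculus arrays for 1 (6.37%) and both domesticus arrays for 0 (6.13%). Below the other 6 lay castaneus for 2 (5.43%), domesticus for 2 (5.47%), musculus for 2 (6.67%) and ssp for 1 (5.17%). Of the 18 bright members alone, castaneus lay above the rest for 6, domesticus and musculus for 0 and ssp for 3, where 7.59%, 5.06%, 6.55% and 5.63% of the 870 others did. Below the rest lay castaneus, domesticus and ssp for 1 each and musculus for 0, where 5.98%, 6.32%, 5.75% and, for musculus, 8.85% of the others did.

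Technical replicates of a group, compared as 1 array against 1 array, also differed, with the median of the bright members higher on replicate 2 in all 4 groups. Replicate 2 was brighter than replicate 1 for 17 of the 18 bright members in ssp, 16 in domesticus, 15 in castaneus and 13 in musculus. The median shift in this order of groups was 0.35, 0.30, 0.17 and 0.29 log2, where the 870 other bright probe sets shifted by 0.06, 0.08, 0.05 and 0.13. In all 4 groups at once, 11 of the 18 (61.1%) were brighter on replicate 2, compared with 30.3% of the other bright probe sets. Among the 20 dimmer members 3 were.

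**Figure D2:**
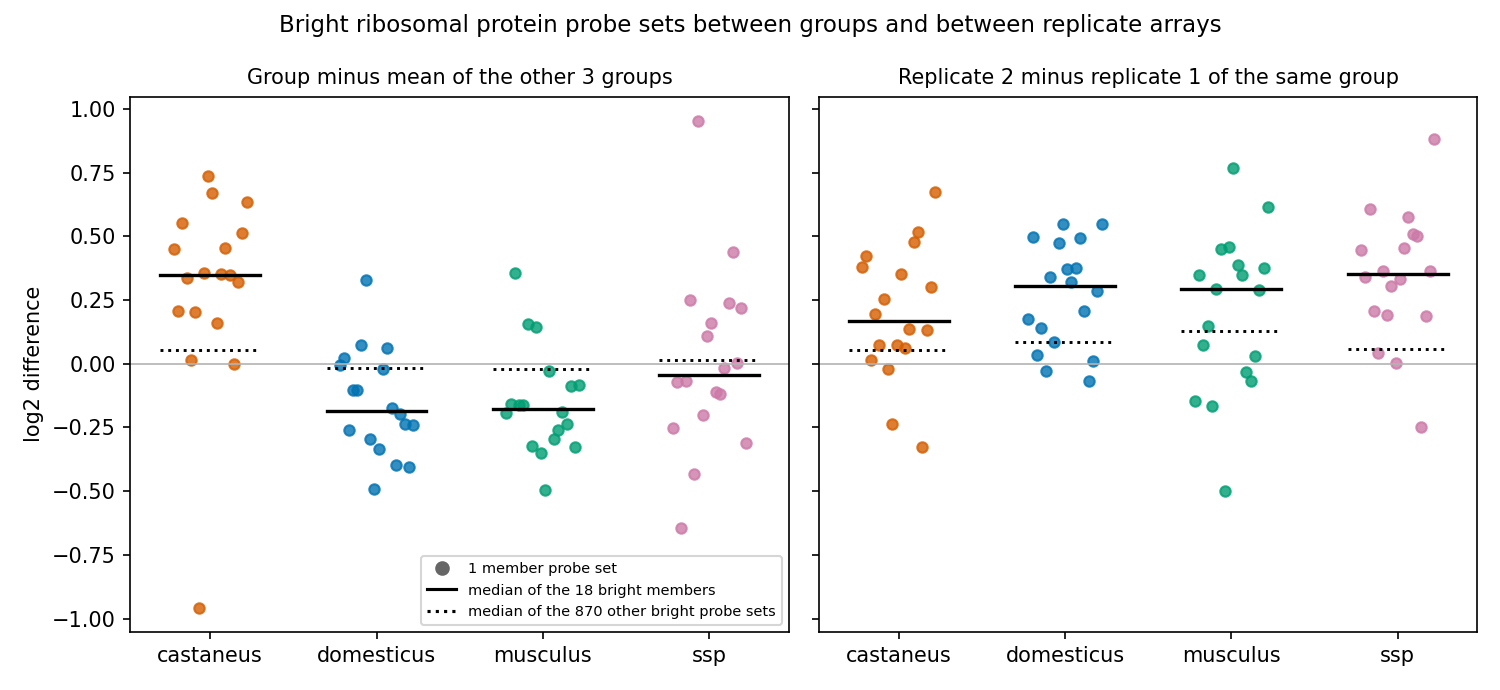
Points are the 18 bright ribosomal protein probe sets. The left panel gives the log2 difference between each group and the mean of the other 3 groups, and the right panel that between replicate 2 and replicate 1 of each group; solid lines are medians of the 18 and dotted lines medians of the 870 other bright probe sets. The castaneus median on the left is 0.35, and the largest replicate median on the right is 0.35 in ssp. The panels are unlike measures: the left sets 2 arrays against the other 6, the right 1 array against 1.

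Split by replicate number, the same arrays that gave the group means again had castaneus highest for most bright members. The order was picked from these arrays and the replicates are technical, so the split is no separate test of it. Among the 4 replicate 1 arrays, castaneus was the highest for 15 of 18 bright members, with a median difference of 0.34 from the mean of the other 3. Among the replicate 2 arrays it was the highest for 14 of 18, with a median difference of 0.33. Of the other bright probe sets, 34.7% and 29.1% were highest in castaneus, with medians of 0.09 and 0.04. The 36 tested probe sets with several symbols, which the rule left out, had 22 in the same brightness class, of which 18 were highest in castaneus, by a median of 0.28, and none was lowest there. They are not independent of the members, since they were read on the same arrays.

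Rpl39l ran against the family and varied the most among its bright members. It read 3999 and 3945 in castaneus, 7523 and 7986 in domesticus, 4722 and 6453 in musculus, and 10033 and 11457 in ssp. The arrays of the 4 groups did not overlap, in the ascending order castaneus, musculus, domesticus, ssp. The ssp mean was 2.70-fold that of castaneus (castaneus minus ssp -1.43 log2, SE 0.26, limma adjusted p = 0.114), and the F test gave an unadjusted p of 0.00597 and an adjusted p of 0.126. The ssp mean was 1.94-fold that of musculus (limma adjusted p = 0.185), and the domesticus mean 1.95-fold that of castaneus (limma adjusted p = 0.214).

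The call on Rpl39l turned on the settings of the test. It passed the F test with a trended and robust variance model (limma adjusted p = 0.00825) and with a filter that kept only brighter probe sets (limma adjusted p = 0.0477). Of all probe sets, 4.32% and 5.25% passed under these 2 settings, against 1.76% under the main one. Under the other settings the adjusted p ran up to 0.307, the value without castaneus replicate 2; castaneus was below ssp in each.

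Rps4l moved with Rpl39l only in that ssp was highest. Its bright probe set carries a suffix that marks probes shared with similar transcripts, so its signal may not be that of Rps4l alone. It read 3957 and 3159 in castaneus, 3267 and 3116 in domesticus, 3097 and 3160 in musculus, and 4848 and 4077 in ssp. Both ssp arrays lay above the others, the second by little over castaneus replicate 1. The ssp mean was 1.42-fold that of musculus (limma adjusted p = 0.455). A second Rps4l probe set was dim, at 15.9 to 168, and was not tested. Rps27l, a relative of Rps27 induced by p53, read between 49.2 and 360, with replicate 1 above replicate 2 in every group, and its group means of 107 to 174 did not separate.

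Of the X-linked genes, Rps4x had 1 tested probe set, of 3, that separated a group. It read 1381 and 1498 in musculus, against 1213 and 1089 in castaneus, 754 and 966 in domesticus, and 851 and 1020 in ssp. Musculus was 1.69-fold above domesticus (domesticus minus musculus -0.75 log2, SE 0.26, limma adjusted p = 0.309). The other tested Rps4x probe sets, both dim and suffixed, were highest in musculus for 1 (96.0) and lowest there for the other (82.3, against 92.3 to 118), so the musculus level of Rps4x rests on the bright probe set. The Rpl39 probe set was too dim to test; it read 108 and 70.7 in ssp and 22.3 to 60 on the other 6 arrays, so that ssp was highest, as for Rpl39l.

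Markers of other testis cells moved with some of these orders. The 10 Leydig cell probe sets summed to 14033 to 15045 in musculus, where the separated Rps4x probe set was highest, and to 3591 to 5953 in the other groups; 9 of 10 were above the mean of the others there. Of the Leydig probe sets 2 passed the F test. The 10 macrophage probe sets summed to 2326 to 3052 in musculus and 1354 to 2106 elsewhere. The 14 spermatid probe sets, summed to 340187 to 394235 in ssp, 306563 to 368870 in castaneus, 274578 to 286856 in domesticus and 252112 to 311573 in musculus. Of the 12 tested, 10 were above the mean of the others in ssp and 10 in castaneus, the groups at opposite ends for Rpl39l. One Prm2 probe set of this list was at the floor on all 8 arrays, while Prm1, the other protamine, read 47840 to 68070 by group. The 12 striated muscle probe sets summed to 1236 to 1658 in castaneus and ssp and to 632 to 954 in domesticus and musculus. Of the 6 tested, 5 were above the mean of the others in castaneus and 5 in ssp. Only Tnnc1 passed the F test, averaging 358 in castaneus, 503 in ssp and about the floor in domesticus and musculus. Ckm was highest in musculus, at 186. The 3 red cell probe sets summed to 14001 to 17707 in musculus and 1576 to 5568 elsewhere. The red cell sum was mostly Hba-a1 (limma F adjusted p = 0.244), while Slc4a1, the only red cell probe set that passed, was lower in musculus (28.0) than in ssp (143; limma adjusted p = 0.0411). Markers of Sertoli cells, which nurse the germ cells, summed to 10421 to 12106, so signal of the Sertoli and germ cell lists was present on every array. Most of the Sertoli sum was Clu, whose 2 probe sets averaged 5594 to 6986 and 2377 to 2729 by group. The other tested Sertoli probe sets averaged 45 to 828. Markers of epididymis summed to 110 to 424. The part of these cells in the ribosomal protein differences was not tested.

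**Figure D3:**
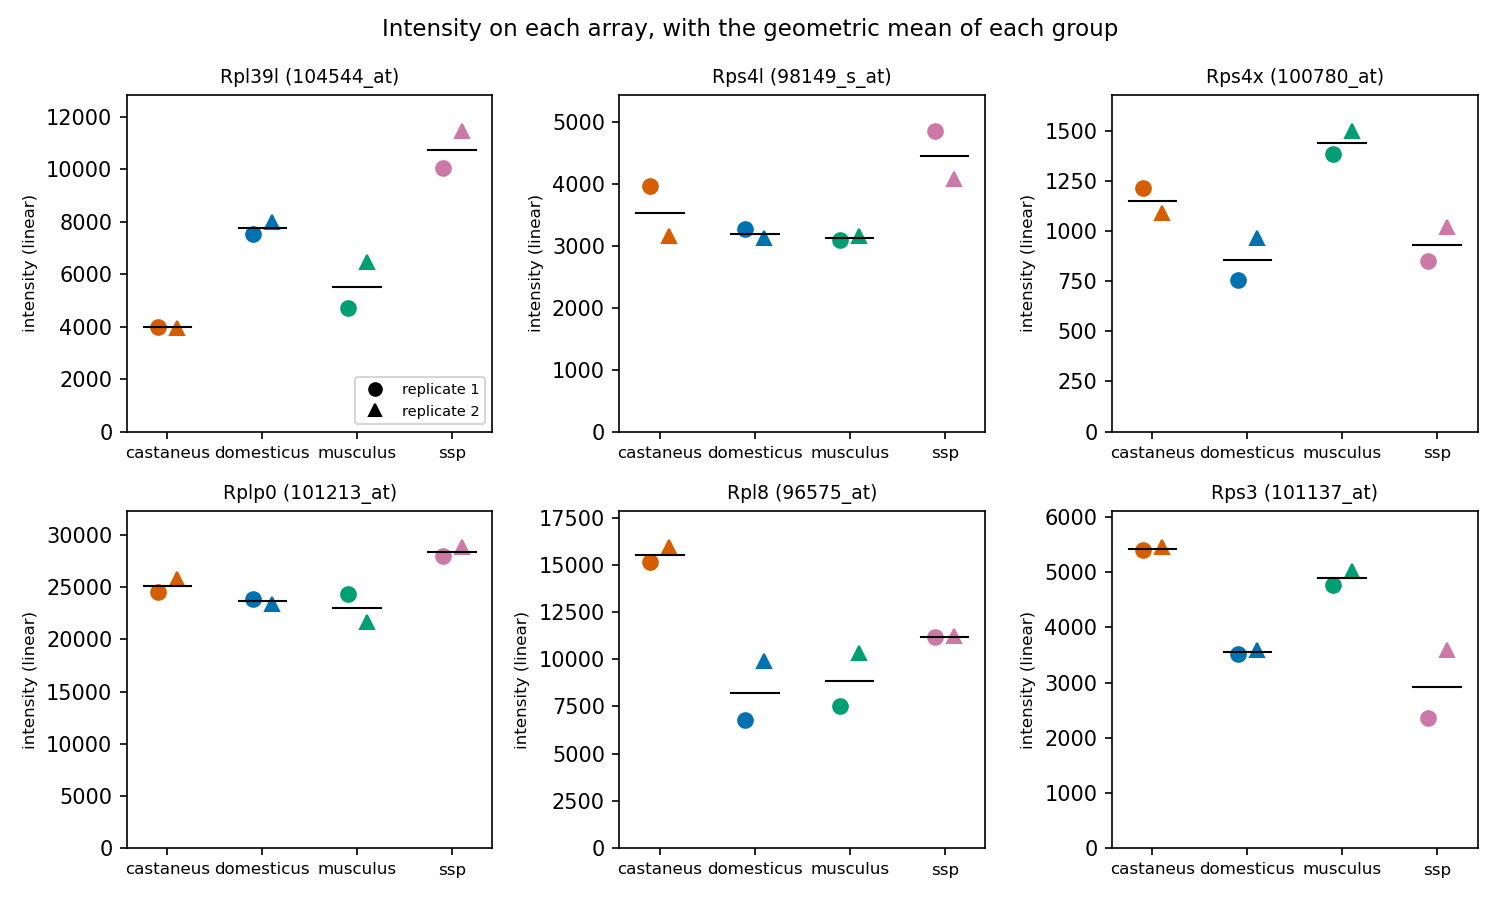
Intensity on a linear scale starting at 0 for 6 ribosomal protein probe sets on each of the 8 arrays, with shapes for the technical replicates and a line for the geometric mean of the group. Rpl39l and Rps4l, the latter by a suffixed probe set, are highest in ssp, Rps4x in musculus, and Rpl8 and Rps3 in castaneus. Rplp0 spans 1.24-fold.

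The members with the narrowest spans included bright and dimmer probe sets. Rplp0, the stalk protein P0 that recruits elongation factors and is a common reference gene, read 24525 and 25788 in castaneus, 23921 and 23441 in domesticus, 24330 and 21682 in musculus, and 28033 and 28832 in ssp. Its replicate spread was the lowest of the family (residual SD 0.07 log2), so both ssp arrays stood clear of the rest on a difference of only 1.24-fold from musculus (limma adjusted p = 0.649). Rpl19, also used as a reference, had the smallest span, 1.15-fold, with group means from 7585 to 8742 and overlapping arrays. Rps28 by its unsuffixed probe set (1.21-fold), Rps27 (1.21-fold) and Rps19 (1.27-fold), which is mutated in Diamond-Blackfan anaemia, also showed no separation; Rps27 and Rps19 lay outside the brightest 10%. Rps3a1 spanned 1.39-fold and was lower in ssp, at 4057 and 5226, than on any other array (5318 to 6981).

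Outside the brightest 10%, differences were wider and the replicates further apart. The 20 dimmer members had a median residual SD of 0.54 log2, against 0.24 for the 18 bright ones, and 7 of the 20 spanned at least 2-fold, against 1 of the 18. Such a span was reached by 38.7% of all tested probe sets and by 10.8% of the 870 other bright ones. Rpl13a, a protein that also silences inflammatory mRNAs when released from the ribosome, read 205 and 192 in domesticus, 369 and 468 in castaneus, 363 and 295 in musculus, and 324 and 445 in ssp. Domesticus lay below all other arrays, and the castaneus mean was 2.09-fold higher (log2 difference 1.07, SE 0.29, limma adjusted p = 0.211). Rps24, by a dim probe set, read 55.8 and 71.3 in musculus and 107 to 165 elsewhere (limma F test, unadjusted p = 0.0379, adjusted p = 0.28). With Rpl39l and Rpl13a it made up the 3 members under an unadjusted p of 0.05.

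Several wide spans belonged to dim probe sets whose replicates lay far apart, among them the widest pair. Rpl38, 3.22-fold by group means, read 39.3 and 136 in castaneus and 84.1 and 218 in ssp. A suffixed Rps4x probe set, 3.16-fold, read 30.9 and 284 in ssp and had 1 castaneus array at the floor of 18.7. Rps20, 2.11-fold, read 27.5 and 125 in domesticus. Rps13 had a low musculus mean with 1 array at 245 beside 1095. A suffixed Rps28 probe set read 725 and 411 in musculus and 777 to 1436 elsewhere. The limma F test gave these 5 probe sets adjusted p-values from 0.499 to 0.811. Rpl32, in contrast, was lower in castaneus (127 and 114) than on any other array (128 to 308), by a small margin.

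Probe sets of the same gene often differed in their highest group. Among 10 genes with several member probe sets, 9 pairs of probe sets were both tested, and 2 of the 9 had the same highest group, although over the 4 group means 8 of the 9 correlated above 0. The Rps28 probe sets were highest in castaneus by 2 and in ssp by 1. Those of Rpl10a were highest in musculus, at 2322, and in castaneus, at 1461. Those of Rpl19 were highest in castaneus for the bright and in domesticus for the dim one. The bright probe set annotated to Rps24, at 25720 to 37320 by group, is uncertain, because the annotation gives its source accession to Rpl7 as well.

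The 11 members that were not tested read between 4.3 and 168 on every array. They were probe sets of Rpl7, Rpl22, Rpl35a, Rpl38, Rpl39, Rps4l, Rps4x, Rps14, Rps15 and Rps29, and 4 genes, Rpl35a, Rpl39, Rps14 and Rps15, had no other. Of the 49 members, 8 had at least 1 array at the floor. Rpl7l1, a nuclear relative of Rpl7 taken by the name rule, was tested at 151 to 314 and showed no separation.

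The genes that work with the ribosome showed few calls, as did the array as a whole. Of all tested probe sets, 1.76% passed the F test and 15.9% had an unadjusted p under 0.05 by it. Fau, a ribosomal protein fused to a ubiquitin-like domain, was dim and not tested. Of 10 tested probe sets of the elongation factor list, 0 passed the F test and 0 had an unadjusted p under 0.05 by limma. In castaneus 8 of these 10 were above the mean of the other groups, by a median of 0.27 log2, and Eef1a1, which delivers transfer RNA, averaged 34660 there against 25480 to 30640. The list includes the mitochondrial factors Tufm and Tsfm.

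Of 45 tested initiation factor probe sets, 0 passed the F test and 4 had an unadjusted p under 0.05. Eif4b, which helps unwind mRNA leaders, differed between domesticus and musculus by a suffixed probe set (limma adjusted p = 0.0333), which read 141 and 142 in domesticus and 10.9 and 25.3, about the floor, in musculus, so no fold is given. Its brighter probe set averaged 688 and 758 in these groups (limma F adjusted p = 0.721). Of 54 ribosome biogenesis probe sets 0 passed and 7 had an unadjusted p under 0.05; their castaneus median was -0.08 log2. Nop10, of the particle that modifies ribosomal RNA, averaged 2653 in castaneus and 6624 to 7804 in the others (limma F adjusted p = 0.0737). Of 14 probe sets for the control of ribosomal protein mRNAs, 0 passed and 1 had an unadjusted p under 0.05. Of 68 mitochondrial ribosomal protein probe sets 1 passed and 9 had an unadjusted p under 0.05. That one, Mrps21, averaged 1043 in castaneus and 129.5 in ssp (limma F adjusted p = 0.0321), an 8.06-fold difference (limma adjusted p = 0.0284). The castaneus median of the mitochondrial list was 0.04 log2, with 37 of 68 above the mean of the other groups.

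Promoters are shown for Rpl39l and its X-linked relative, and for 3 bright members that were highest in castaneus, as examples. They were not set against the intensities. They are RefSeq sequences of build GRCm38.p6, from 80 bases before to 20 bases after the annotated start. Capitals mark CGGAAG, the core bound by ETS factors such as GABP, on either strand (CTTCCG).
Rpl39l, chr16:10170148-10170247, plus strand: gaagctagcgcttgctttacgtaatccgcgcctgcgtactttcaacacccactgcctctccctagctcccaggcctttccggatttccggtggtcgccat
Rpl39, chrX:37085203-37085302, minus strand: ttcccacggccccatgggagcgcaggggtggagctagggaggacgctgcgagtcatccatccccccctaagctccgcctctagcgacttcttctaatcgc
Rpl6, chr5:121204421-121204520, plus strand: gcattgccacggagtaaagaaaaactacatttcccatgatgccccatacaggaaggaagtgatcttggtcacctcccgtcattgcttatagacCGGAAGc
Rps18, chr17:33955646-33955745, minus strand: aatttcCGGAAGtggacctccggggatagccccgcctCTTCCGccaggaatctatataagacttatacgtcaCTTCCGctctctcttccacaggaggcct
Rps7, chr12:28635934-28636033, minus strand: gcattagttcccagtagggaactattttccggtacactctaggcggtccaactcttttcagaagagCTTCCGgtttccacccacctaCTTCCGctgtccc

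The core was present once in the Rpl6 window, 3 times in that of Rps18 and 2 times in that of Rps7, and in neither of the first pair, although the full 300-base promoters of Rpl39l and Rpl39 held 2 and 1. The windows of Rpl7a and Rps3, also highest in castaneus, held 0, so the core in this window does not set Rpl39l apart. Of the 35 genes, 28 had a promoter in the table, and 19 of them (67.9%) held the core within 250 bases before to 50 after a start, where 18.8% of all genes did. The cyclic AMP response element TGACGTCA, a site of testis activators, was in 0 of the 28 and in 2.03% of all genes. The TATA box TATAAA was in 4 of 28 (14.3%) and in 15.7% of all genes. The matches describe letters and show no binding.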

How the data were processed

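Values are linear intensities that the authors deposited, 1 per probe set and array; per the labels, testis RNA was hybridised to Affymetrix chips. How probes were summarised and arrays scaled was not given in the sources used here. Trimmed by 2% at both ends, the array means ran from 495.6 to 496.7, with medians of 151 to 183, so arrays arrived scaled. Intensities below the 10th percentile, 18.7, were raised to that floor before log2. Probe sets reaching their array's 40th percentile on at least 2 arrays entered limma 3.58.1 (R 4.3.3) with 1 mean per group over 8 arrays, 4 residual and 2.34 prior degrees of freedom. Calls needed a Benjamini-Hochberg adjusted p under 0.05 over all 8874 probe sets and a log2 difference of 1. Group values are geometric means of 2 arrays; precision is limited by how few arrays there are. Symbols were updated to GRCm38.p6. The fit was tested on simulated data, which were redrawn, and the limit for passing relaxed, after earlier versions missed it; changes at the fold threshold were not called there and larger ones only in part, so an absence of calls says little. Named members are those with the widest and narrowest spans, the largest differences per group, paralogs, X-linked and stalk genes and textbook examples; others (Rpl7, Rpl7a, Rpl37a, Rpl41, Rps10 and Rps18, and Nop10 and Eef1a1 of the related lists) were picked after their values were seen. The members and lists were chosen with earlier results of these data known.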

Additional observations from a re-analysis of the deposited data

How the results depend on the processing

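No member passed the F test or a pair contrast, and none was specific to 1 group, under several other settings (0 calls in each). These were median centring, quantile normalization, floors at the 5th and 20th percentiles, no filter, exclusion of suffixed probe sets and 1 probe set per gene. Of all probe sets, 0.25% passed the F test without a filter and 1.63% to 2.42% under the rest of these settings. At such shares 0 calls among the members says little. Pairs fitted alone, which allow only the pair contrast, gave 0 calls too. With 1 array left out, the lone array of its group was assumed to vary like the other groups, so no calls are given there. The exceptions were a filter at the 60th percentile and a trended and robust variance, under each of which 1 member, Rpl39l, passed the F test and 1 differed between castaneus and ssp (limma adjusted p = 0.0429 and 0.00538). Of all probe sets, 5.25% and 4.32% passed the F test under these 2 settings, where 1 of 32 and 1 of 38 members did. With the probe sets of several symbols added, an alternative chosen after seeing the data, 1 differed between castaneus and musculus, and 33 bright probe sets of 40 were highest in castaneus. With the replicate number as a block, 0 members passed, where 0.473% of all probe sets did. There 8 members rather than 3 had an unadjusted p under 0.05 by the limma F test. The share of all probe sets that did so under the block was not counted, so this rise has no background beside it. Correlations of same-numbered deviations over all tested probe sets were 0.03 to 0.17, all above 0. Of the 18 bright members, 11 were brighter on replicate 2 in all 4 groups. The labels do not say whether arrays of the same number were handled together, so the main fit without a block may leave out a pairing. The count of bright members highest in castaneus was 12 to 15 with 1 array left out and 14 after quantile normalization. The median member difference between castaneus and musculus, 0.25, was 0.14 after quantile normalization, 0.17 without a filter and 0.16 to 0.37 with 1 array left out. That between castaneus and domesticus, 0.15, was 0.33 with 1 probe set per gene and 0.15 to 0.40 with 1 array left out, highest without domesticus replicate 2. That between musculus and ssp, -0.07, ran from -0.25 without ssp replicate 1 to 0.066 without ssp replicate 2, and was 0.036 after median centring and 0.042 after quantile normalization. That between castaneus and ssp, 0.21, was 0.082 without a filter, 0.35 after median centring and 0.060 to 0.37 with 1 array left out. That between domesticus and ssp, -0.07, was 0.025 after median centring, 0.023 after quantile normalization and -0.21 to 0.043 with 1 array left out. The cause of these shifts was not tested. Dim members, near the floor, limit what can be said of 11 probe sets.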
